A study of Rattus norvegicus with 21 samples.

Results

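The effect of added Klf2 was measured in neonatal rat ventricular myocytes (NRVMs, heart muscle cells cultured from newborn rats) under phenylephrine (PE), an α1-adrenergic agonist. The comparison set 3 libraries from cells given an adenovirus with Klf2 and PE (Ad-Klf2-PE) against 3 libraries from cells given a green fluorescent protein adenovirus and PE (Ad-GFP-PE). These 6 libraries were all that the sample titles placed in the 2 groups, of 21 libraries in the series. The other 15 comprised 14 RNA libraries and 1 CUT&Tag library. Of the 14, Ad-Klf2 and Ad-GFP without PE (3 each) and the small interfering RNA groups siKlf2-PE, siNeg-PE, siKlf2 and siNeg (2 each) were used only for contrast. Per the labels, PE was given at 100 µM for 36 h. Cells had 12 h of PE or none before the virus, which then stayed for 24 h, whereas the small interfering RNA preceded PE by 12 h. All cultures of the main comparison were thus given both an adenovirus and PE, and PE began before the virus. One label field names PE for the RNA libraries without PE too, so their status was taken from their titles and from a field giving 0 h.

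KLF2 is a zinc finger transcription factor, best known from vascular endothelium, where blood flow induces it and where it restrains inflammatory and clotting genes. PE acts on cultured cardiomyocytes through a receptor that couples to Gq, and the cells respond with hypertrophic growth, in which they enlarge, make more protein and return to parts of the fetal heart programme. Adenoviral overexpression drives a gene far above its natural level, and the virus can enter any cell type in the culture. The files identify genes by Ensembl ID alone, and 0 IDs could be paired with a symbol in the reference tables. The level of Klf2 itself, the markers of cardiomyocytes and of the other heart cells, and named pathways were therefore not analysed here, and the labels of virus and cell type stand unchecked.

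Added Klf2 in PE-treated myocytes went with a change in most genes that could be tested. Of 16153 genes, 10625 (65.8%) were called at an adjusted p under 0.05 by edgeR's quasi-likelihood test, 5435 (33.6%) higher and 5190 (32.1%) lower in Ad-Klf2-PE. With a fold of at least 1.5 as well, 7444 genes (46.1%) passed, 4159 (25.7%) higher and 3285 (20.3%) lower. The near balance of the 2 directions depended on the scaling, since library totals alone gave 5008 higher and 5891 lower among all calls. With the scaling used, the balance was lost among large changes. At 4 fold and more, 1866 genes (11.6%) were higher and 617 (3.82%) lower, and at 16 fold and more 782 (4.84%) were higher and 99 (0.613%) lower. Some of these folds rest on a group without any counts. With such genes set to the lower bound of their fold, 1776 genes were higher and 595 lower at 4 fold, and 629 and 76 at 16 fold. The lean toward higher held at a mean of 10 CPM or more (counts scaled to the size of the library) over the 6 libraries. Of these genes, 840 were higher and 279 lower by 4 fold. A gene that was high in only 1 of the 2 groups could pass that mean.

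The replicates lay close together against these differences. In 11968 of the 16153 tested genes (74.1%), all 3 Ad-Klf2-PE libraries lay on one side of all 3 Ad-GFP-PE libraries, higher for 6060 genes and lower for 5908. The groups overlapped for 37 of the 7444 genes called with a 1.5 fold. Those genes were called on these same libraries, so their choice already favours groups that do not overlap. Between libraries of one group, log2 CPM correlated across genes at 0.9859 to 0.9915 in Ad-Klf2-PE and at 0.9821 to 0.9834 in Ad-GFP-PE. The median standard deviation of a gene within its group was 0.0614 log2 units in Ad-Klf2-PE and 0.0811 in Ad-GFP-PE. The labels do not say whether the 3 libraries of a group came from separate cell preparations, so the p-values cover only the variation among these libraries, and that may be technical.

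Across all 12 overexpression libraries the Ad-Klf2-PE group stood furthest out. The first principal component of log2 CPM held 63.9% of the variance and the second 9.83%. Scores on the first were 141.8 to 144.2 in Ad-Klf2-PE and -73.59 to -68.91 in Ad-GFP-PE. Without PE they were 7.424 to 12.45 in Ad-Klf2 and -83.95 to -78.44 in Ad-GFP. The main axis thus placed Ad-GFP with and without PE side by side, Ad-Klf2 apart from both, and Ad-Klf2-PE beyond it.

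**Figure D1:**
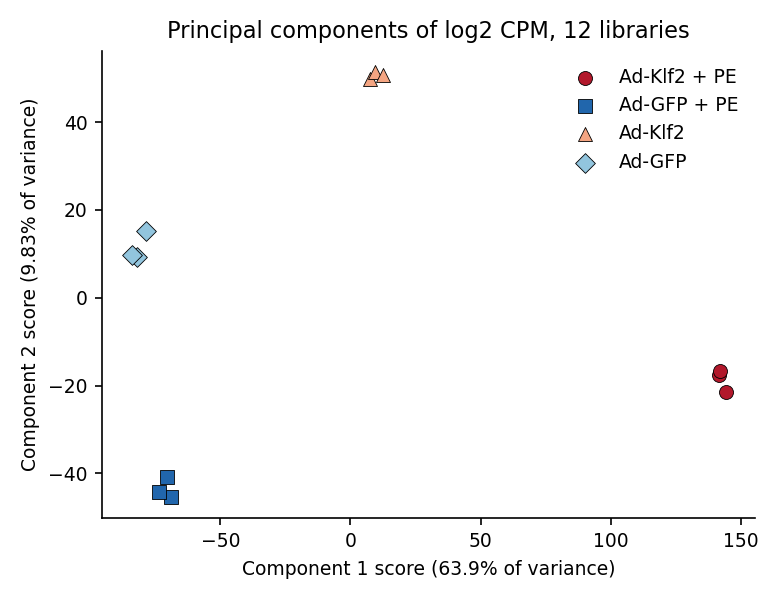
Scores of the 12 overexpression libraries on the first (x) and second (y) principal components of log2 CPM, with the share of variance on each axis and 1 point per library. Ad-Klf2-PE lies alone at the right, at 141.8 to 144.2, and the 3 libraries of each group lie close together.

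Total counts were 34361777 to 76138723 in Ad-Klf2-PE and 33155447 to 39723124 in Ad-GFP-PE. Many low counts were even, 72.1% to 77.9% in Ad-Klf2-PE and 75.8% to 77.9% in Ad-GFP-PE, as when both ends of a fragment are counted, so a count is not an independent molecule. With each library thinned to the same total count, 17335 to 18077 genes were detected in Ad-Klf2-PE and 17055 to 17365 in Ad-GFP-PE, ranges that overlapped. Thinning counts does not equalise fragments counted at both ends, and within each of the 2 groups the number detected still followed the original total. Genes at 1 CPM or more did not overlap, with 13042 to 13043 in Ad-Klf2-PE and 12548 to 12583 in Ad-GFP-PE. RNA was less concentrated in a few genes, since the 10 most abundant held 7.19% to 7.68% of counts in Ad-Klf2-PE and 10.7% to 11.6% in Ad-GFP-PE. These are bulk libraries, in which fewer cells of a type and less RNA per cell cannot be told apart. Ad-GFP without PE stood apart in having 539 to 776 genes with 1 to 5 counts, against 1728 to 1994 across Ad-Klf2-PE and Ad-GFP-PE.

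Called genes were found at every level, and the share called differed between levels. Among the 2922 genes under 1 CPM, 22.0% were called, and among the 2289 genes of 100 to 1000 CPM, 88.2% were. These shares need not follow the size of the change, since small changes are hard to call on few counts. Under 1 CPM, 400 genes were at least 1.5 fold higher in Ad-Klf2-PE and 243 lower. Of these, 377 and 168 reached 4 fold. Levels are means over the compared libraries, so a gene's change in Ad-Klf2-PE moves its own level. At 100 to 1000 CPM higher calls prevailed, with 771 genes (33.7%) at least 1.5 fold higher in Ad-Klf2-PE and 375 (16.4%) lower. The median log2 fold change of that class was 0.14. The 87 genes at 1000 CPM and over leaned the other way, with 17 higher and 28 lower in Ad-Klf2-PE and a median log2 fold change of -0.20. Over all tested genes the median log2 fold change was -0.03. Scaling by library totals alone moved it to -0.13, and 50.0% rather than 55.9% of the 1.5 fold calls were then higher.

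**Figure D2:**
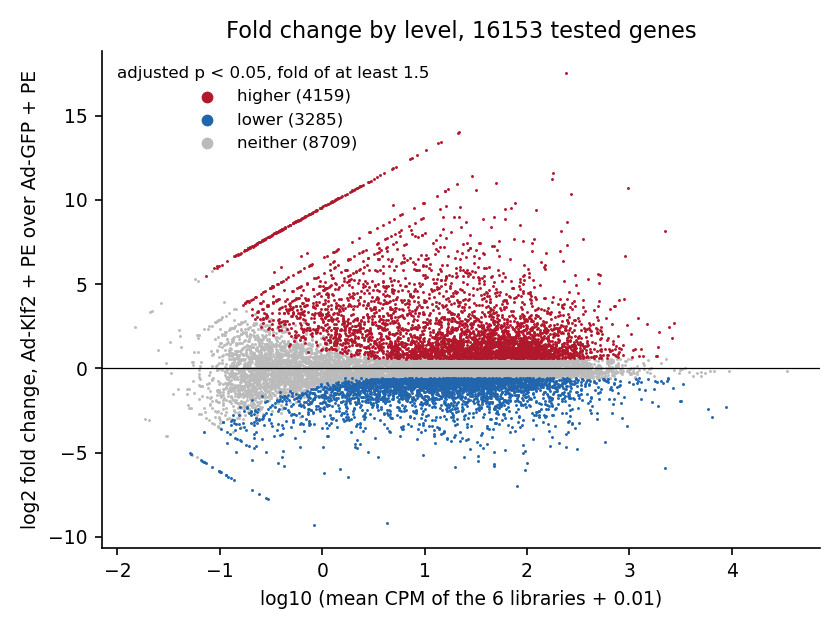
Log2 fold change of Ad-Klf2-PE over Ad-GFP-PE (y) against the log10 mean CPM of the 6 libraries plus 0.01 (x), with 1 point per tested gene. Of these, 4159 are higher (red), 3285 lower (blue) and the rest neither (grey), and the diagonal lines of points at the left are genes at or near 0 in 1 group, whose fitted fold has no firm size.

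Shares of the total show how much of the RNA was involved. The 4159 genes called higher held 38.6% to 39.2% of all counts in Ad-Klf2-PE and 13.7% to 14.1% in Ad-GFP-PE. Without PE the same genes held 20.3% to 21.1% in Ad-Klf2 and 14.6% to 14.9% in Ad-GFP. The 3285 genes called lower held 11.1% to 11.4% in Ad-Klf2-PE and 30.4% to 30.7% in Ad-GFP-PE, against 22.3% to 22.7% in Ad-Klf2 and 26.7% to 27.4% in Ad-GFP. The shares with PE describe genes chosen on those libraries. In the resting libraries, which did not choose them, the same genes moved in the same directions by a smaller share.

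Individual genes show the size of the effect. With no symbols, 4 genes are given by ID, the 2 largest fitted rises and 2 largest fitted falls among the 8533 called genes whose groups did not overlap and whose mean reached 5 CPM. The rises were ranked by fitted folds over a group at 0, which have no firm size. Another 54 of these genes, not at 0 in Ad-GFP-PE, had a fitted fold above the bound of ENSRNOG00000010573, and 3 had one above that of ENSRNOG00000009105. The roles of the 4 genes are not stated in the files. They were chosen for their change under PE, so their values with PE are a description, and the values without PE and after knockdown come from libraries that did not choose them.

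ENSRNOG00000009105 had 506, 430 and 515 CPM in the Ad-Klf2-PE libraries and no counts in any of the 3 Ad-GFP-PE libraries. Taking 3 fragments counted at both ends, or 6 counts, as the limit for a library at 0, the gene was at least 2340-fold higher in Ad-Klf2-PE (484 ± 46.4 CPM, SD, n = 3). It was on without PE as well, at 102, 111 and 134 CPM in Ad-Klf2 and at 0 in all 3 Ad-GFP libraries, which is at least 981-fold higher (edgeR adjusted p = 1.7e-14). The mean level in Ad-Klf2-PE was 4.17 times that in Ad-Klf2. In the deeper knockdown libraries the gene was at the edge of detection, with 0 and 0 counts in siKlf2-PE, against 17 and 6 in siNeg-PE. Without PE it had 2 and 1 counts in siKlf2, against 13 and 17 in siNeg. The loss in siKlf2-PE was called (edgeR adjusted p = 0.00574) on these few counts.

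ENSRNOG00000010573 had 42.6, 44.3 and 42.7 CPM in Ad-Klf2-PE and no counts in Ad-GFP-PE, at least 231-fold higher. Without PE it had 2.7, 2.97 and 2.72 CPM in Ad-Klf2 and none in Ad-GFP, at least 26-fold higher (edgeR adjusted p = 5.86e-11). Ad-Klf2-PE held 15.4 times the mean level of Ad-Klf2, a wider gap than for ENSRNOG00000009105. The difference between the effects with and without PE could not be estimated for either gene, since both Ad-GFP groups were at 0. No knockdown library held more than 2 counts of it.

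ENSRNOG00000015075 had 1.0, 2.41 and 0.828 CPM in Ad-Klf2-PE, against 147, 164 and 161 CPM in Ad-GFP-PE. It was 125-fold lower in Ad-Klf2-PE, a log2 fold change of -6.96 (SE 0.191). Without PE it had 24.1, 23.7 and 20.3 CPM in Ad-Klf2, against 70.5, 74.3 and 68.8 CPM in Ad-GFP. That was also a fall, of -1.65 on the log2 scale (SE 0.137, edgeR adjusted p = 1.68e-08). The fall with PE exceeded the fall without PE by a log2 difference of -5.32 (SE 0.234, edgeR adjusted p = 1.53e-12). Knockdown lowered this gene too, with 46.4 and 42.9 CPM in siKlf2-PE against 133 and 154 CPM in siNeg-PE (log2 fold change -1.69, SE 0.0611, edgeR adjusted p = 2.05e-09). Under PE the gene was thus lower both after siKlf2 and after Ad-Klf2, in separate experiments.

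ENSRNOG00000032703 had 2.96, 2.63 and 3.02 CPM in Ad-Klf2-PE, against 176, 198 and 195 CPM in Ad-GFP-PE. It was 65.3-fold lower in Ad-Klf2-PE, a log2 fold change of -6.03 (SE 0.0919). Without PE it had 58.2, 56.0 and 49.6 CPM in Ad-Klf2, against 109, 117 and 110 CPM in Ad-GFP, a fall of -1.04 on the log2 scale (SE 0.069, edgeR adjusted p = 7.21e-10). The difference between the 2 falls was -4.99 (SE 0.113, edgeR adjusted p = 4.84e-16). After knockdown it had 160 and 140 CPM in siKlf2-PE against 114 and 118 CPM in siNeg-PE (log2 fold change 0.37, SE 0.0541, edgeR adjusted p = 0.000134). That call rested on the scaling of the knockdown libraries. With library totals alone it shrank to 0.11 on the log2 scale (SE 0.0521, edgeR adjusted p = 0.092), while ENSRNOG00000015075 stayed lower at -1.95 (SE 0.0547, edgeR adjusted p = 2.58e-11).

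**Figure D3:**
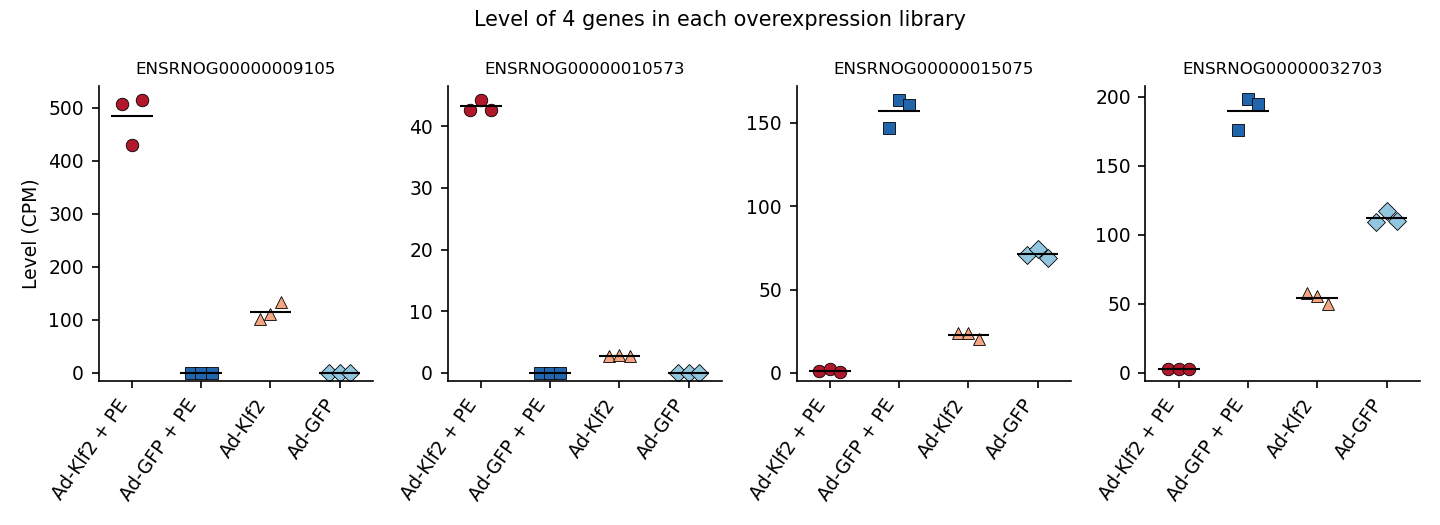
Level in CPM (y, linear, from 0 and on a scale of its own in each panel) of the 4 genes in each overexpression library, by group (x), with a line at each group mean. The first 2 genes are at 0 in Ad-GFP-PE and Ad-GFP and stand at 484 and 43.2 CPM on average in Ad-Klf2-PE, and the last 2 average 1.41 and 2.87 CPM in Ad-Klf2-PE, below the Ad-Klf2 means of 22.7 and 54.6 CPM.

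Genes that crossed from little or no expression to a clear level were mostly on the side of added Klf2. Of the tested genes, 739 were at 1 CPM or more in each Ad-Klf2-PE library and under 1 CPM in each Ad-GFP-PE library, and 198 were the reverse. At 10 CPM or more on one side and under 1 CPM on the other, the counts were 159 and 2. No counts at all in Ad-GFP-PE and at least 1 CPM in each Ad-Klf2-PE library were found for 73 genes, and the reverse for 1 gene. The 73 had a median of 2.85 CPM in Ad-Klf2-PE and 10 of them reached 10 CPM. Libraries without PE, not used to choose them, showed counts of 62 of the 73 in all 3 Ad-Klf2 libraries, while 51 were at 0 in all 3 Ad-GFP libraries. Ad-GFP had the fewest genes with 1 to 5 counts of all overexpression groups, 539 to 776, so a 0 there says less. No share over all genes was set beside these counts. The median of the 73 in Ad-Klf2 was 0.376 CPM. All 73 stayed under 1 CPM in every knockdown library, but only 1 of them had no counts in any of those deeper libraries. A 0 in Ad-GFP-PE thus need not mean no expression.

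Whether the effect of Klf2 depended on PE was tested gene by gene as a difference of the 2 effects. The Ad-Klf2 effect without PE gave fewer calls, 5672 of 16153 genes (35.1%), or 2546 (15.8%) at 1.5 fold, 1728 (10.7%) higher and 818 (5.06%) lower. The test of the difference itself called 7926 genes (49.1%), 4050 (25.1%) with a more positive effect under PE and 3876 (24%) with a more negative one. Of the 4159 genes higher with PE, 3113 (74.8%) had a more positive effect with PE by this test and 71 (1.71%) a less positive one. Of the 3285 genes lower with PE, 2457 (74.8%) had a more negative effect with PE and 8 a less negative one. These last counts take genes picked on the effect with PE, which itself enters the difference, so they describe the picked genes. The spread within Ad-GFP without PE, which enters both the resting effect and the difference, was the widest of the 4 groups, with a median of 0.114 log2 units against 0.0838 in Ad-Klf2.

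The 2 effects used separate libraries, and their calls ran the same way for most genes called in both. Both effects were higher for 1414 genes, which is 34.0% of those higher with PE and 81.8% of those higher without. The median log2 fold change of these genes was 3.05 with PE and 1.66 without. For 546 genes both effects were lower, 16.6% of those lower with PE and 66.7% of those lower without, with medians of -1.74 and -0.85. Opposite calls were few, with 62 genes higher with PE and lower without, and 51 lower with PE and higher without. A mean of 10 CPM or more over the 6 libraries with PE was reached by 899 of the 1414 and 309 of the 546.

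Sorted by the size of their change with PE, genes showed a graded change without PE. Those at least 16 fold higher with PE had a median log2 fold change of 1.74 without PE, with genes at 0 set to their bound, and 67.4% were called higher there. From 4 to 16 fold the median without PE was 0.70 and the share 44%, and from 2 to 4 fold 0.28 and 24.1%. From 1.5 to 2 fold they were 0.14 and 9.88%, a share below the 10.7% of all tested genes called higher without PE. On the lower side the medians without PE were -0.92 at 16 fold and more and -0.58 from 4 to 16 fold. They were -0.30 from 2 to 4 fold and -0.15 from 1.5 to 2 fold. The shares called lower without PE were 46.5%, 34.7%, 17.0% and 7.32% in the same order, against 5.06% of all tested genes. The genes not called with PE had a median of -0.04 without it. Of the 782 genes at least 16 fold higher with PE, 270 had a mean of 10 CPM or more over the 6 libraries with PE. Ad-GFP had the fewest genes with 1 to 5 counts of all overexpression groups, so a 0 there says less. Tested genes without counts in Ad-GFP and higher in Ad-Klf2 numbered 283, and the reverse 14.

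**Figure D4:**
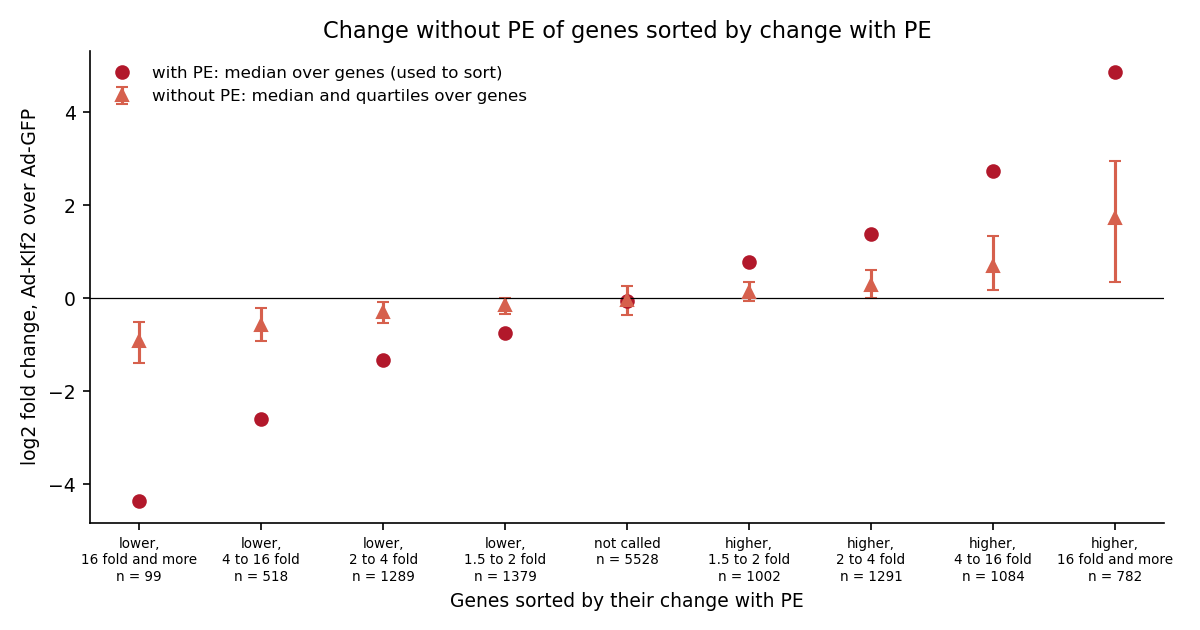
Median log2 fold change (y) of genes sorted by direction and size of their change in Ad-Klf2-PE over Ad-GFP-PE (x, with the number of genes in each class), with genes at 0 set to their bound and calls under 1.5 fold left out. Circles give the change with PE, which sorted the genes, and triangles with quartile bars give Ad-Klf2 over Ad-GFP without PE, graded in the same order from -0.92 to 1.74.

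A further question was what added Klf2 did to the genes that PE itself changes. The genes were taken from siNeg-PE over siNeg in the knockdown table, which shares no library with the main comparison. That comparison called 8922 of 18173 genes (49.1%), 1074 (5.91%) higher and 1449 (7.97%) lower at 1.5 fold. Of the higher genes 984 were tested in both tables, and of the lower genes 1340. As a background, 3982 (25.0%) of the 15944 genes tested in both tables were higher in Ad-Klf2-PE and 3285 (20.6%) lower, with a median log2 fold change of -0.05.

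Genes raised by PE in siNeg cells were more often lower than higher under added Klf2. Of the 984, 359 (36.5%) were lower in Ad-Klf2-PE and 225 (22.9%) higher, and their median log2 fold change was -0.40. The lean toward lower was steepest for the strongest responders with a mean of 10 CPM or more over the 6 compared libraries. Genes low in Ad-Klf2-PE could pass that mean on their Ad-GFP-PE level alone, and the reverse, so it is not independent of the comparison. Of the 21 genes raised at least 4 fold that passed, 15 (71.4%) were lower in Ad-Klf2-PE and 3 higher, with a median of -2.04. Without the minimum level the 57 genes raised at least 4 fold held 23 lower and 15 higher, with a median of -1.05, or -0.84 with genes at 0 set to their bound.

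The levels per library show how far this went. Relative to the Ad-GFP mean, the median log2 level of the 984 genes stood at 0.334 to 0.386 in the Ad-Klf2-PE libraries and at 0.666 to 0.741 in the Ad-GFP-PE libraries. Ad-Klf2 without PE stood at 0.139 to 0.2. Ad-Klf2-PE thus lay between Ad-GFP-PE and both groups without PE, with no overlap. For the 57 genes raised at least 4 fold the levels were 0.733 to 0.878 in Ad-Klf2-PE and 1.234 to 1.379 in Ad-GFP-PE.

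Genes lowered by PE in siNeg cells changed in both directions. Of the 1340, 413 (30.8%) were higher in Ad-Klf2-PE and 357 (26.6%) lower. Their median log2 fold change was 0.05, or -0.05 with libraries scaled by their totals alone, a scaling that moved the median of all genes as far. Relative to all tested genes the list's median was 0.079 higher, and 0.08 higher with library totals alone. The 462 with a mean of 10 CPM or more over the 6 compared libraries held 203 (43.9%) higher and 130 (28.1%) lower, with a median of 0.34. All 9492 genes at that level held 28% higher and 20.9% lower. Relative to the Ad-GFP mean, the median log2 level of the 1340 genes was -0.59 to -0.491 in the Ad-Klf2-PE libraries and -0.633 to -0.611 in the Ad-GFP-PE libraries. The groups did not overlap, but the gap was small. It was -0.677 to -0.588 in Ad-Klf2-PE and -0.816 to -0.75 in Ad-GFP-PE for genes lowered 2 to 4 fold. For those lowered 1.5 to 2 fold it was -0.532 to -0.419 in Ad-Klf2-PE and -0.561 to -0.552 in Ad-GFP-PE. Of these classes, only the 39 genes lowered at least 4 fold showed an overlap, at -1.294 to -1.198 in Ad-Klf2-PE and -1.343 to -1.176 in Ad-GFP-PE.

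**Figure D5:**
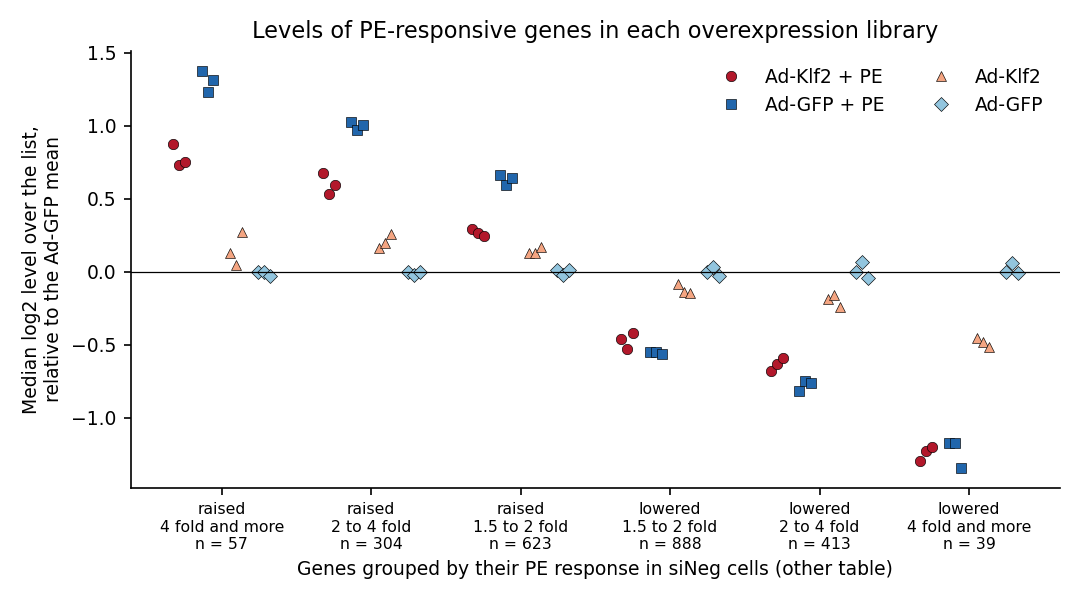
Median log2 (CPM + 0.5) of genes grouped by their PE response in siNeg cells (x, with the number of genes), relative to the mean of Ad-GFP (y), with 1 point per overexpression library. In the 3 raised classes each Ad-Klf2-PE library lies below each Ad-GFP-PE library, in the classes lowered 1.5 to 2 and 2 to 4 fold each lies above, and in the class lowered at least 4 fold the 2 groups overlap.

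Lowering and raising Klf2 under PE were also set side by side, again with no shared libraries. Knockdown under PE (siKlf2-PE over siNeg-PE) called 9866 of 18173 genes (54.3%), 1185 (6.52%) higher and 2080 (11.4%) lower at 1.5 fold. Its balance depended on the scaling, since 48.1% of all calls were higher with the scaling used and 15.9% with library totals alone. Of the 1076 genes higher after knockdown and tested in both tables, 365 (33.9%) were lower in Ad-Klf2-PE and 231 (21.5%) higher, with a median log2 fold change of -0.31. At 2 fold or more after knockdown, 131 of 344 (38.1%) were lower and 68 higher. Of the 196 among them with a mean of 10 CPM or more over the 6 compared libraries, 97 (49.5%) were lower and 41 higher. That mean is not independent of the comparison, since genes low in Ad-Klf2-PE could pass on their Ad-GFP-PE level alone. Over all 15944 genes, 20.6% were lower and 25.0% higher, and over the 9492 at that level 20.9% and 28%.

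Of the 1884 genes lower after knockdown, 583 (30.9%) were higher in Ad-Klf2-PE and 409 (21.7%) lower. Their median log2 fold change was 0.08, or -0.02 with library totals alone, and stood 0.11 above the median of all tested genes under both scalings. The 573 with a mean of 10 CPM or more, a mean over the 6 compared libraries themselves, held 273 (47.6%) higher and 114 (19.9%) lower. The median of these 573 was 0.48. Seen from the other side, the opposite calls were a small part of the effect of added Klf2. Genes lower after knockdown made up 14.6% of the 3982 genes higher in Ad-Klf2-PE, and genes higher after knockdown made up 11.1% of the 3285 lower ones. Among all 15944 genes the same calls after knockdown were 11.8% lower and 6.75% higher. Calls in the same direction in both were 231 (5.8%) of the 3982 and 409 (12.5%) of the 3285. In number, the genes lower in Ad-Klf2-PE were lower after knockdown slightly more often than higher. Beside all genes, their 12.5% lower after knockdown lay near 11.8%, and their 11.1% higher lay above 6.75%. Of those with a mean of 10 CPM or more over the 6 compared libraries, 260 were higher after knockdown and 114 lower.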

How the data were processed

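Per the submitters' processing notes, the authors used Trim Galore, STAR and featureCounts with the rat build mRatBN7.2; versions are not given in the sources used here. The 2 deposited tables list unnormalised read counts for 30560 Ensembl IDs each, and 0 of their columns were left unused. Input was 400 ng of RNA, per the labels. All 12 overexpression libraries entered 1 quasi-likelihood fit in edgeR 4.0.16 (R 4.3.3) with TMM scaling, after filterByExpr (min.count 10, min.total.count 15); the 8 knockdown libraries were fitted alike. P-values are two-sided and Benjamini-Hochberg adjusted over all genes tested. CPM were computed from the counts and TMM-scaled totals, with 2 exceptions. Library totals alone were used for the number of genes at 1 CPM or more per library. They were also used for the knockdown levels of genes without counts in Ad-GFP-PE. SE is the log2 fold change divided by the root of its F. A group at 0 was set to 6 counts per library for fold bounds, which cover counting error only. Levels per list used log2 of CPM plus 0.5. Detection was compared after thinning each library to 32693762 counts.

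The rule for named genes and the gene lists needed symbols, and the peaks a matching annotation, so these were not run. In their place stand the 2 largest fitted rises and 2 largest fitted falls by ID, and lists taken from the knockdown table. Members and lists were chosen with earlier results of these data known. Alternatives used DESeq2 1.42.0, limma 3.58.1 voom, other scalings and filters, halved counts, a replicate block, the compared groups alone, and each library left out. Tested on simulated data for Ad-Klf2-PE over Ad-GFP-PE (15837 genes), the fit recovered 55 of 100 changes of 1.5 fold and 82 of 100 of 4 fold. Of its calls, 4.2% fell on unchanged genes. Only these few genes were changed, equally up and down, so the simulation does not cover data in which most genes move. Python 3.11.15 and matplotlib 3.10.9 made summaries and figures.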

Additional observations from a re-analysis of the deposited data

Results flagged for a closer look

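The effect of added Klf2 differed with and without PE, by the test of the difference itself (edgeR's quasi-likelihood test, adjusted p under 0.05), in 7926 genes. The same test picked out ENSRNOG00000015075, with a log2 difference between the effects with PE and without PE of -5.32 (SE 0.234). It also picked out ENSRNOG00000032703, with a difference of -4.99 (SE 0.113). Both were named for their large falls with PE, a choice that favours a large difference.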

How the results depend on the processing

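Genes called in Ad-Klf2-PE over Ad-GFP-PE numbered 7724 to 11848 over 15 alternatives, against 10625, and 9862 to 10062 with each library left out. The calls at 1.5 fold fell to 4652 with a minimum of 10 CPM, against 7444, since fewer genes were tested; leaving out libraries gave 7155 to 7285. Knockdown calls under PE were 6528 with that minimum, against 9866, and 8385 to 9380 without each library. Left-out ranges were 4815 to 5786 for Ad-Klf2 without PE, 7369 to 8213 for the difference of effects and 5475 to 5950 for that difference at 1.5 fold, where 5671 genes passed. Genes without counts in Ad-GFP-PE numbered 121 at a minimum of 0.5 CPM in Ad-Klf2-PE and 50 at 2 CPM, against 73. The 4 genes given by ID kept their call in Ad-Klf2-PE over Ad-GFP-PE in all 15 alternatives. With scaling of the knockdown table by totals alone, the genes higher after knockdown split into 98 higher and 179 lower in Ad-Klf2-PE, and those lower after knockdown into 1141 and 774. The knockdown call of ENSRNOG00000032703 was lost with that scaling.

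Same-numbered libraries had correlations of their deviations of -0.0203 to 0.0446 in the overexpression table and -0.0432 to 0.0403 in the knockdown table. With 2 libraries a group, the knockdown deviations mirror each other. The labels do not say whether same-numbered libraries share a preparation, and these correlations cannot settle it. A replicate block gave 10501 calls for Ad-Klf2-PE over Ad-GFP-PE, 7363 at 1.5 fold, 5555 without PE, 7832 for the difference and 9838 for knockdown. The alternatives for peaks near gene starts were not run. Of genes under 1 CPM, 22.0% were called; the part of depth in this was not tested. The lists at 10 CPM and the scalings of the lists were chosen after seeing the data.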
